A study of Mus musculus with 16 samples.

Results

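Small nucleolar RNA (snoRNA) genes were described in dendritic cells from mouse lung tumours and from the lung around them. Members were all genes whose platform symbol begins with Snora or Snord followed by a digit, read from probe sets that name a single gene, and the probe set with the highest mean over 16 arrays stood for a gene that had several. This gave 51 genes, 20 Snora and 31 Snord, of 19938 genes tested. Members were chosen by symbol and, among probe sets of a gene, by that mean level. The class was picked for description with earlier results of the same contrast known, so its counts below support nothing beyond description. Cells that carried CD11c, CD11b and MHC class II on their surface, named CD11b+ DCs in the labels, were sorted from C57BL/6 mice whose airways had received Lewis lung carcinoma (LLC) cells, a mouse lung tumour line. The 8 arrays titled tumoral hold cells from the tumour and the 8 titled peritumoral hold cells from lung next to it, so every sample came from a tumour-bearing animal. No label gives an age, a time after inoculation, an animal or a pool, and p-values therefore measure only the spread between these samples, which may be technical.

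Box C/D snoRNAs (Snord) guide 2′-O-methylation and box H/ACA snoRNAs (Snora) guide pseudouridylation, mostly of ribosomal RNA, and a few of either kind act in cutting the ribosomal RNA precursor. Most mammalian snoRNAs lie in introns of host genes, many of which encode ribosomal proteins or translation factors, and are trimmed from the excised intron. Each class assembles with its own core proteins into a nucleolar particle. A probe set over such a gene can read both the mature snoRNA and unspliced host RNA, which these values cannot separate.

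In the RefSeq gene table the Snord members were 45 to 148 nucleotides long (median 68) and the Snora members 61 to 205 (median 125). A host gene enclosed 50 of the 51 members, by position alone because the table holds no strand. Snord118, the U8 snoRNA that acts in maturation of the large-subunit ribosomal RNAs, was the exception. The median level, as the mean log2 value over 16 arrays, was 8.26 for Snord and 9.03 for Snora members, against 7.02 over all genes tested. As a background level, 1027 odorant receptor genes had a median of 4.78 and a 95th percentile of 6.40. All 20 Snora and 26 of 31 Snord members lay above that percentile, and Snord38a, Snord61, Snord58b, Snord73a and Snord52 did not.

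The arrays carried no call of detection, and the number of arrays limits the precision. Their medians over all genes tested ran from 6.99 to 7.11 in the peritumoral group and from 6.94 to 7.04 in the tumoral group. The sorting markers were high in both groups: Itgax averaged 11.47 ± 0.24 (SD, n = 8) in peritumoral and 11.62 ± 0.08 in tumoral arrays, and Itgam and H2-Ab1 differed by 0.09 and 0.04. Arrays were not uniform: the peritumoral SD of Itgam was 0.50, and peritumoral 4 had a sorting marker mean of -0.56 around each gene's mean. The mean of 9 conventional dendritic cell genes, on that scale, ran from -0.68 to 0.41 in peritumoral and from -0.52 to 0.39 in tumoral arrays. All 8 lists of markers of other cell types were highest in array peritumoral 4, where endothelial genes stood 3.47 above their mean over all arrays. Peritumoral 7 was next for that list at 1.31, and the other 6 peritumoral arrays ran from -0.52 to 0.12. Every tested gene of these 8 lists was lower in tumoral arrays, with list medians from -0.73 (endothelium) to -0.12 (alveolar macrophage). These markers move with the same contrast as the snoRNA genes, and their part in it was not tested. In these bulk samples, fewer cells of a type and less RNA per cell cannot be told apart.

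Most snoRNA genes were higher in the tumoral arrays. By difference of group means, 41 of 51 members were higher (26 of 31 Snord and 15 of 20 Snora), where 41.7% of all genes were. With each array centred on its median the counts were 48 members and 58.3% of all genes. The median difference, tumoral minus peritumoral on the log2 scale, was 0.30 for Snord, 0.15 for Snora and -0.02 for all genes. A difference of 1.5-fold or more in the tumoral direction was found for 10 members, 9 of them Snord (Snord73b, Snord33, Snord87, Snord15a, Snord53, Snord38a, Snord15b, Snord35b and Snord61) and the other Snora16a. Only 39 genes, 0.196% of those tested, reached that size, so these members make up 10 of the 39. Under quantile normalization 7 members reached it, and the share of all genes at that size was not taken there. No member was lower by that much, where 0.873% of all genes were.

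No difference passed the test. With limma and Benjamini-Hochberg adjustment over all genes, 0 of 19938 genes (0%) had an adjusted p under 0.05, and the smallest was 0.232. At an unadjusted p under 0.05, 20 Snord and 8 Snora members were higher, where 5.6% of all genes were, and 0 members were lower, where 5.9% of all genes were. The exact rank-sum test also called 0 genes after adjustment, with 2307 genes at an unadjusted p under 0.05 against 2292 by limma. The groups overlapped for every member, where 0.00502% of all genes were higher and 0.0802% lower without overlap.

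**Figure D1:**
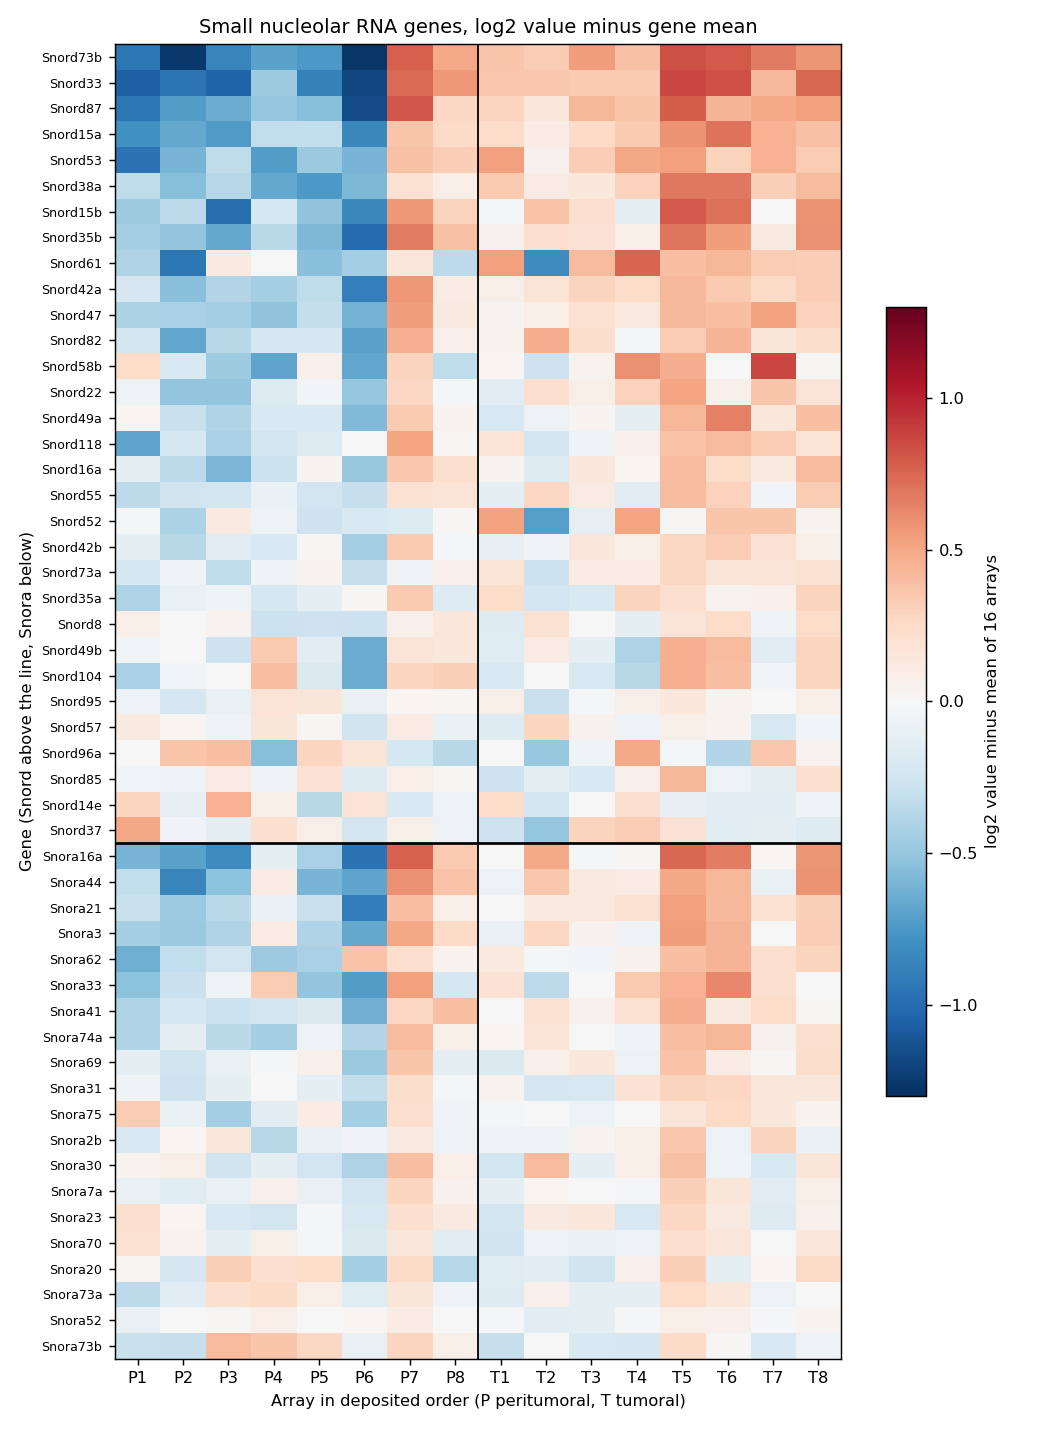
Each cell is the log2 value of a member in an array minus that gene's mean over 16 arrays, with red above and blue below the mean. Columns are the arrays in deposited order, P for peritumoral 1 to 8 and T for tumoral 1 to 8. Rows are 31 Snord genes above the line and 20 Snora genes below it, each block sorted by tumoral minus peritumoral difference. The upper rows of both blocks are blue in P1 to P6 and red in P7, while the lower rows show no such block.

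The low values lay in the first 6 deposited arrays, all peritumoral, and the other 2 peritumoral arrays resembled the tumoral ones. The class mean, taken per array over members after subtracting each gene's own mean over 16 arrays, was -0.27, -0.35, -0.30, -0.22, -0.24 and -0.50 for Snord in peritumoral 1 to 6. It was 0.29 and 0.08 in peritumoral 7 and 8. In tumoral 1 to 8 it was 0.08, -0.03, 0.11, 0.17, 0.40, 0.31, 0.20 and 0.27. The lowest of the later 10 arrays was thus above the highest of the first 6, and peritumoral 7 exceeded 6 of the 8 tumoral arrays. By title the Snord mean was -0.19 ± 0.25 (SD, n = 8) in peritumoral and 0.19 ± 0.14 (SD, n = 8) in tumoral arrays, a difference of 0.38.

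Snora members followed a shallower form of the same profile. Their class mean was -0.20, -0.24, -0.16, -0.03, -0.14 and -0.38 in peritumoral 1 to 6, then 0.32 and 0.04 in peritumoral 7 and 8. The tumoral arrays gave -0.08, 0.07, -0.03, 0.02, 0.36, 0.23, 0.03 and 0.17. Here the first 6 arrays overlapped the others, because peritumoral 4 at -0.03 stood above tumoral 1 at -0.08. By title the mean was -0.10 ± 0.21 (SD, n = 8) in peritumoral and 0.10 ± 0.15 (SD, n = 8) in tumoral arrays, a difference of 0.20. The number of members above their own mean ran from 5 to 17 of 51 in the first 6 arrays and from 23 to 49 in the other 10.

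The 2 classes had the same sign in 13 of 16 arrays and differed in the size of the shift. Snord minus Snora was between -0.19 and -0.07 in the first 6 arrays, -0.03 in peritumoral 7 and 0.04 in peritumoral 8. It was 0.16, -0.10, 0.14, 0.14, 0.04, 0.08, 0.17 and 0.10 in tumoral 1 to 8. Snord therefore stood above Snora in 1 of 8 peritumoral and 7 of 8 tumoral arrays, and the difference between the group means was 0.18. The class contrast was not tested, since the members were chosen with these values known. The titles run through the peritumoral and then the tumoral samples in deposited order, and no label gives a scan or extraction date, so order and group cannot be told apart across the titles. Within the peritumoral title the values part between peritumoral 6 and peritumoral 7, and the part of array order or handling in the result was not tested.

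**Figure D2:**
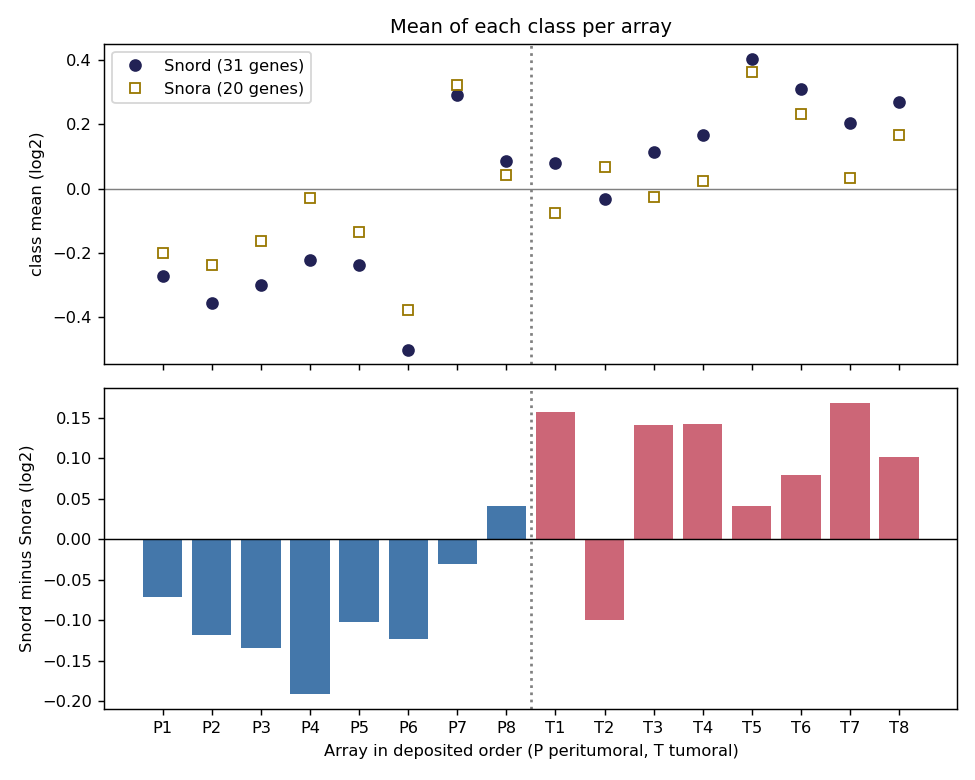
The upper panel plots the mean of 31 Snord genes (filled circles) and 20 Snora genes (open squares) per array, in log2 units around each gene's mean, with arrays in deposited order (P peritumoral, T tumoral). The lower panel shows Snord minus Snora for the same arrays as bars from 0. Snord lies between -0.50 and -0.22 in P1 to P6 and between -0.03 and 0.40 elsewhere, and the lower panel is above 0 in P8 and in every tumoral array but T2.

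A clean gap, with each of peritumoral 1 to 6 below each of the other 10 arrays, was found for 15 of 51 members (11 Snord and 4 Snora) and for 196 of all genes tested, 0.983%. The opposite pattern was found for 0 members and for 0.677% of all genes. In 14 of the 15 members peritumoral 8 lay within the tumoral range, and in 11 peritumoral 7 did. The gap that picked these members already sets both arrays above the first 6, so this likeness is partly built in. Over all 31 Snord members, both arrays lay within the tumoral range in 23. The 15 members lie in 14 host genes, and their lengths spanned 45 to 148 nucleotides in Snord and 113 to 198 in Snora.

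Snord73b, from an intron of the ribosomal protein gene Rps3a1, had the largest positive difference of all genes tested. Its level was 8.22 at the lowest, 8.68 at the median and 10.26 at the highest in peritumoral arrays, and 9.81, 10.04 and 10.31 in tumoral arrays. Peritumoral 1 to 6 lay between 8.22 and 8.79, whereas peritumoral 7 at 10.26 and peritumoral 8 at 9.98 fell among the tumoral arrays. The difference was 1.12 (SE 0.25, 2.18-fold, limma adjusted p = 0.232).

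Snord33 belongs to the intronic snoRNAs of Rpl13a, a set known from work on lipid-induced and oxidative stress. The peritumoral low, median and high were 8.29, 8.56 and 10.21, against 9.81, 9.86 and 10.34 in tumoral arrays. No tumoral array was as low as any of the first 6 peritumoral arrays, which ended at 9.01, and peritumoral 7 and 8 stood at 10.21 and 10.04. The difference was 1.06 (SE 0.26, 2.09-fold, limma adjusted p = 0.239).

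Snord87 lies within Snhg6, a host transcript without a long reading frame. It was dimmer, with 5.94, 6.49 and 7.90 in peritumoral and 7.24, 7.53 and 7.88 in tumoral arrays, and peritumoral 7 held its highest value of all 16. The difference was 0.86 (SE 0.22, 1.82-fold, limma adjusted p = 0.246).

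Snord15a, a U15 snoRNA of the ribosomal protein gene Rps3, ran 7.06, 7.40 and 8.25 in peritumoral and 7.98, 8.25 and 8.60 in tumoral arrays. The groups overlapped through peritumoral 7 and 8 alone, since the other 6 ended at 7.57. Its difference was 0.76 (SE 0.16, 1.70-fold, limma adjusted p = 0.232). Snord53, inside Wdr43, which encodes a factor of small-subunit processing, ran 7.83, 8.24 and 9.17 against 8.85, 9.18 and 9.32. The overlap again came from peritumoral 7 and 8, and the difference was 0.76 (SE 0.17, 1.69-fold, limma adjusted p = 0.232).

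Snord38a, chosen after its values were seen, had the smallest unadjusted p of all genes (difference 0.74, SE 0.13, limma adjusted p = 0.232). Its level was 3.78 to 4.72 in peritumoral and 4.63 to 5.21 in tumoral arrays, all below the odorant receptor 95th percentile. Snord61, another dim member chosen this way, was not ordered by position: its first 6 peritumoral arrays spanned 3.94 to 5.01 and the tumoral arrays 4.07 to 5.64.

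For several box C/D members the group means lay close together. Snord57, a bright snoRNA inside Nop56, the gene of a box C/D core protein, ran 11.84, 12.11 and 12.25 in peritumoral and 11.89, 12.10 and 12.37 in tumoral arrays, a difference of -0.01 (SE 0.07). Snord14e, a U14 snoRNA within the heat-shock gene Hspa8, ran 11.06, 11.43 and 11.87 against 11.17, 11.35 and 11.66 (difference -0.06, SE 0.11). Snord49b, the other member among the 3 brightest, spanned 10.95 to 11.93 and 11.19 to 12.05 (difference 0.11, SE 0.14). The first 6 arrays overlapped the later ones for each of these bright members. The lowest difference of the class was that of Snord37, within the elongation factor gene Eef2, at -0.10 (SE 0.12), and Snord85 and Snord96a stood at -0.02 (SE 0.09) and -0.01 (SE 0.16).

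Among box H/ACA members, Snora16a and Snora44 had the largest differences, and both lie in the host transcript Snhg12. Snora16a was 8.72, 9.16 and 10.44 (low, median, high) in peritumoral and 9.66, 9.94 and 10.43 in tumoral arrays. Its first 6 arrays ended at 9.55, just below the lowest tumoral array, and the difference was 0.63 (SE 0.22, 1.55-fold, limma adjusted p = 0.316). Snora44 was 8.82, 9.26 and 10.28 against 9.58, 9.92 and 10.26, with the groups overlapping also through peritumoral 4 at 9.78. Its difference was 0.48 (SE 0.19, limma adjusted p = 0.362).

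Snora21, in the ribosomal protein gene Rpl23, was 7.18, 7.80 and 8.48 in peritumoral and 8.08, 8.28 and 8.62 in tumoral arrays. It kept the first 6 arrays, which ended at 8.0, below all others, with a difference of 0.48 (SE 0.14, limma adjusted p = 0.256). Snora3 in Rpl27a differed by 0.37 (SE 0.16), Snora62, the E2 snoRNA in Rpsa, by 0.37 (SE 0.13), and Snora33 in Rps12 by 0.37 (SE 0.17). In these 3 the first 6 arrays overlapped the others.

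Snora52, in Rplp2, was the brightest member and the least variable over 16 arrays (SD 0.07). Its peritumoral low, median and high of 12.24, 12.34 and 12.43 nearly coincided with 12.20, 12.32 and 12.42 in tumoral arrays (difference -0.03, SE 0.05). Snora73a and Snora73b, the U17 snoRNAs of Snhg3, which act in ribosomal RNA cleavage rather than in guiding a modification, differed by -0.01 (SE 0.09) and -0.18 (SE 0.11). For Snora73b, peritumoral arrays spanned 10.05 to 10.76 and tumoral arrays 10.05 to 10.59. The bright Snora23 and Snora7a stood at 0.03 (SE 0.09) and 0.07 (SE 0.08), and Snora20 and Snora70 at -0.0038 (SE 0.12) and -0.00056 (SE 0.08).

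**Figure D3:**
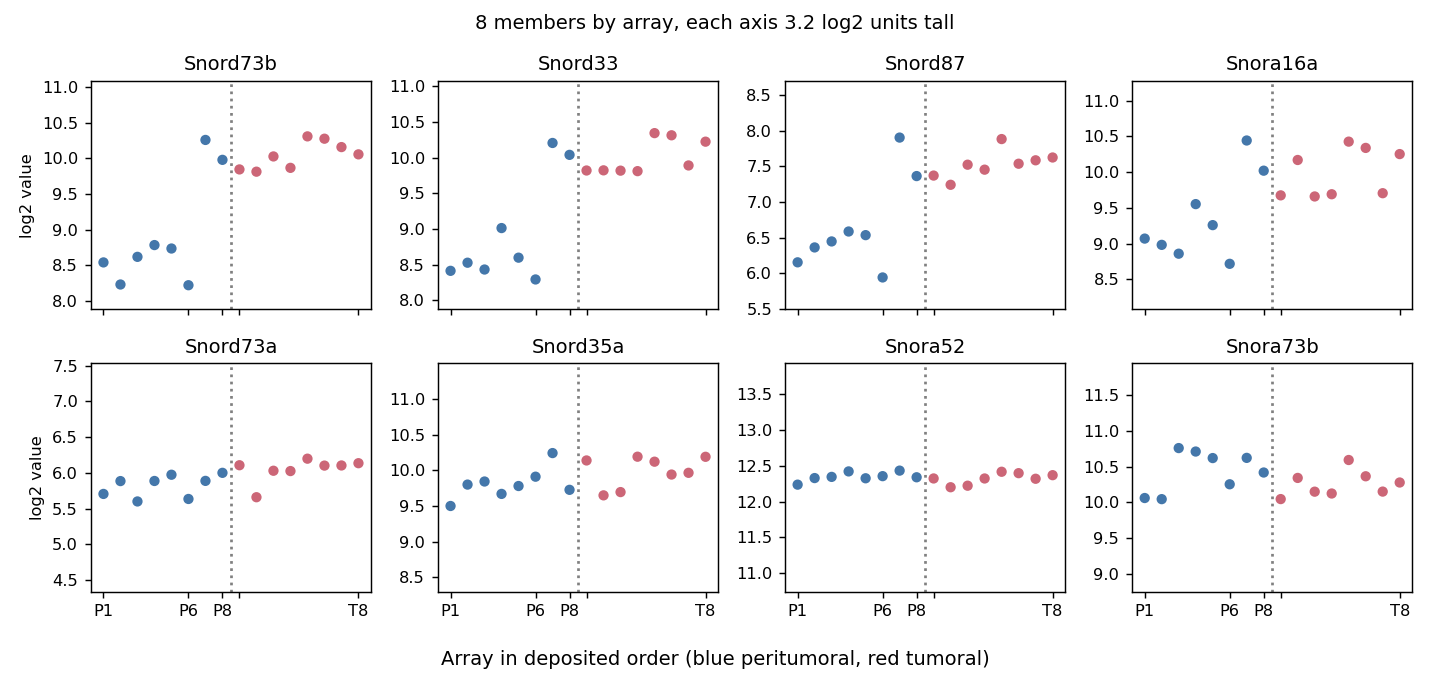
Log2 values of 8 members by array in deposited order, blue for peritumoral and red for tumoral, each panel 3.2 log2 units tall around the member's mean. Snord73b, Snord33, Snord87 and Snora16a are low in P1 to P6 and at tumoral values in P7 and P8. Snord73a and Snord35a, which share a host with Snord73b and Snord33, and Snora52 and Snora73b do not show that gap.

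Members of a shared host did not have equal differences. Among the hosts, 10 hold 2 members each, and the members named here beyond the largest differences were chosen after their values were seen. In Rps3a1, Snord73b differed by 1.12 and Snord73a by 0.22 (SE 0.08), the latter at a level of 5.93, below the odorant receptor 95th percentile. In Rpl13a, Snord33 differed by 1.06 and Snord35a, at 9.90 the brighter of the pair, by 0.18 (SE 0.10). The Snord35a arrays ran 9.5, 9.79 and 10.24 in peritumoral and 9.65, 10.04 and 10.19 in tumoral samples, so the first 6 arrays, which ended at 9.91, overlapped the rest.

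The other pairs gave a mixed picture. In Rpl23a, Snord42a differed by 0.53 (SE 0.15) and Snord42b by 0.24 (SE 0.10), and in the nucleolin gene Ncl the box C/D member Snord82 differed by 0.47 (SE 0.14) and the box H/ACA member Snora75 by 0.13 (SE 0.10). Snord82 and Snord42a had the gap after peritumoral 6 and their partners did not. Both U15 members of Rps3, Snord15a and Snord15b (0.63, SE 0.20), had it. In Rack1, whose protein sits on the small ribosomal subunit, neither Snord95 (0.03, SE 0.07) nor Snord96a had it.

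The host's own probe set was tested for 27 members, in 23 host genes. The member's signed difference exceeded that of its host in 17 of these 27 pairs, 10 of 14 Snord pairs and 7 of 13 Snora pairs. The 17 include pairs in which both were negative and the member less so, such as Snora52 (-0.03) and Rplp2 (-0.23). In 19 of the 27 pairs both were positive. The median difference was 0.30 for the 27 members and 0.16 for the hosts. Of the 23 hosts, 8 had peritumoral 1 to 6 below all other arrays, where 0.983% of all genes did. Rpl23, Rpl27a, Rps12, Rps3, Rps3a1 and Rpsa among these 8 encode ribosomal proteins. The gap was found for 22 of the 55 cytosolic ribosomal protein genes tested (40%). Of the 9 members with that gap and a tested host, 6 had a host with it.

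Gas5, a non-coding transcript known chiefly as a snoRNA host, and its member Snord47 differed by nearly the same amount. Gas5 was 9.59 ± 0.37 (SD, n = 8) in peritumoral and 10.09 ± 0.13 in tumoral arrays, a difference of 0.50 (SE 0.13, limma adjusted p = 0.246). Snord47 was 8.27, 8.47 and 9.43 (low, median, high) against 8.92, 9.13 and 9.41, a difference of 0.52 (SE 0.14). In both, peritumoral 7 and 8 lay in or above the tumoral range.

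Elsewhere host and member parted. Rps3a1 differed by 0.47 (SE 0.13), less than Snord73b at 1.12 and more than Snord73a at 0.22. Rps3 differed by 0.21 (SE 0.07) and Wdr43 by 0.16 (SE 0.08), against 0.76 for Snord15a and 0.76 for Snord53. Rplp2, which encodes an acidic protein of the ribosomal stalk, differed by -0.23 (SE 0.08) while its member Snora52 differed by -0.03 (SE 0.05). Of 5 other Snhg transcripts tested, none had the gap, and their differences ran from -0.23 for Snhg17 to 0.16 for Snhg15.

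**Figure D4:**
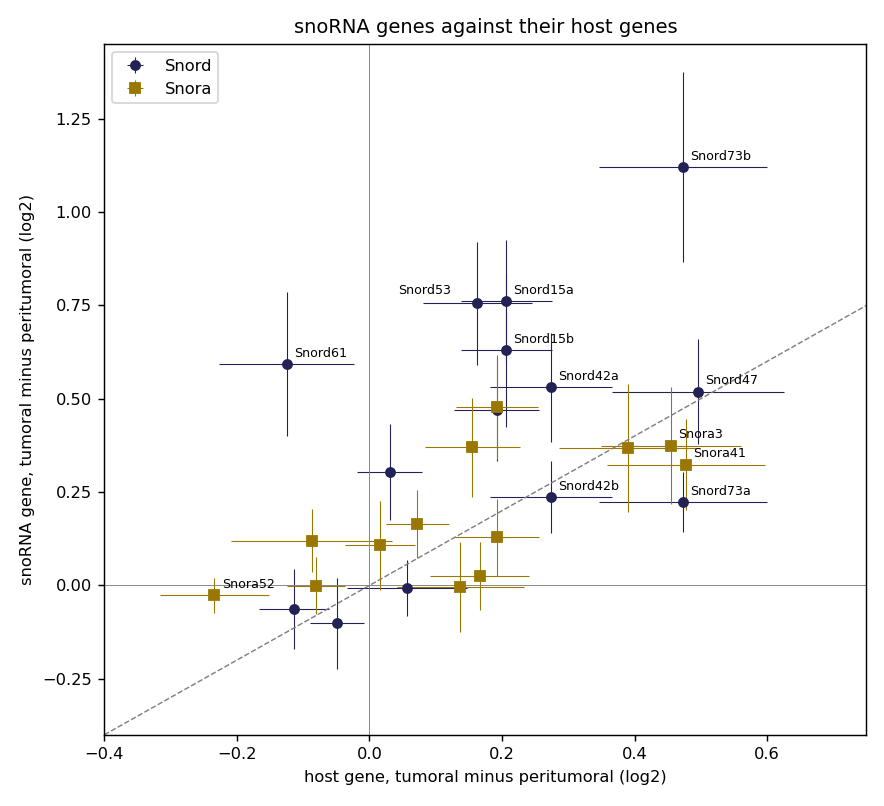
Each point is a snoRNA gene whose host gene was tested (14 Snord, circles, and 13 Snora, squares), with tumoral minus peritumoral differences of the host on the horizontal and of the snoRNA on the vertical axis, in log2 units, and bars of 1 SE. The dashed line marks equal differences. Snord73b, Snord15a, Snord15b, Snord53 and Snord61 lie above it by more than their SE, Snord47 lies on it, and Snord73a lies below it.

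Host genes of snoRNAs often begin transcription within a run of pyrimidines, the terminal oligopyrimidine tract that is known from genes of the translation machinery. The start regions of some hosts named above are shown because the members' own sequences were not used here. Each line gives 40 bases before and 15 bases from the RefSeq start on the sense strand, 5′ to 3′ (GRCm38.p6), with the longest run of C and T in the 15 bases either side of the start in capitals, counted only as far as that stretch reaches.
Rpl13a, host of Snord33 and Snord35a, minus strand, chr7:45128731-45128785: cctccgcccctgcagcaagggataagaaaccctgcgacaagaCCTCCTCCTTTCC
Gas5, host of Snord47, plus strand, first listed start, chr1:161034561-161034615: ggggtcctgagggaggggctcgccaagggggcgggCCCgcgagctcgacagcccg
Gas5, plus strand, second listed start, chr1:161035126-161035180: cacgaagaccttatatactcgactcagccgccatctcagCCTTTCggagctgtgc
Snhg12, host of Snora16a and Snora44, plus strand, chr4:132308638-132308692: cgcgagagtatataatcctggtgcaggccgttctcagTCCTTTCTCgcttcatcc
Rack1, host of Snord95 and Snord96a, plus strand, chr11:48800320-48800374: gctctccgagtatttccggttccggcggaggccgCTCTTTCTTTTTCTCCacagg
The RefSeq promoter table held 30 of the 40 distinct hosts, with 32 starts. Within the 15 bases either side of the start, with runs cut at the edges, a run of at least 5 pyrimidines was found for 21 of these 32 starts (65.6%) and for 47.3% of all 32851 starts of the table. Runs farther from the start were not counted. A counted run did not have to touch the start, and the start used in these cells was not measured. These lengths therefore do not show whether a host has or lacks the tract. Long runs occurred in Rpl13a, host of Snord33 (difference 1.06) and Snord35a (0.18), in Snhg12, host of Snora16a (0.63) and Snora44 (0.48), and in Rack1, host of Snord95 (0.03) and Snord96a (-0.01). Rpl27a, host of Snora3 (0.37), had a run of 19. Runs shorter than 5 were found in Rps3a1 (2), host of Snord73b (1.12), and Rps3 (3), host of Snord15a (0.76) and Snord15b (0.63). Wdr43 (4), host of Snord53 (0.76), and Rpl23 (3), host of Snora21 (0.48), also fell below 5. So did Ncl (4), host of Snord82 (0.47) and Snora75 (0.13). By this count, hosts of members with large differences had both long and short runs near the listed start.

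The proteins of the snoRNA particles were read from lists of their genes, and none passed the test. Of the box C/D core, Fbl, the methyltransferase fibrillarin, differed by 0.27 (SE 0.09, limma adjusted p = 0.299) and Nop58 by 0.37 (SE 0.12, limma adjusted p = 0.296), both with the gap after peritumoral 6. Nop56 differed by 0.06 (SE 0.09). Snu13, the protein that binds the kink-turn of box C/D RNAs, went the other way: peritumoral 1 to 6 lay between 11.67 and 11.84, and the other 10 arrays between 11.03 and 11.35 (difference -0.37, SE 0.10, limma adjusted p = 0.246). Of the box H/ACA core, the pseudouridine synthase gene Dkc1 differed by -0.06 (SE 0.17), Gar1 by -0.12 (SE 0.08), Nhp2 by 0.23 (SE 0.12) and Nop10 by 0.18 (SE 0.07), with no gap in any of the 4.

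Genes that assemble the particles or build ribosomes were read beside the 0.983% of all genes that had the gap. Of 14 assembly factors, 6 were higher and 8 lower, 0 had the gap, and the median difference was -0.0019. Of 27 ribosome biogenesis genes, 19 were higher and 8 lower with a median of 0.05, and Npm1, the nucleolar chaperone nucleophosmin, was the only member of that list with the gap (0.39, SE 0.12). Of 55 cytosolic ribosomal protein genes tested, 46 were higher, the median difference was 0.13, and 22 (40%) had the gap after peritumoral 6.

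Other small RNA genes were split. Of 11 genes for small nuclear and related RNAs, 9 were higher and 4 had the gap: Rnu5g (1.08, SE 0.26), the Y RNA genes Rny1 (0.95, SE 0.28) and Rny3 (0.65, SE 0.16), and Rmrp, the RNA of ribonuclease MRP (0.35, SE 0.09). In the same list Rn7sk and Rpph1 each differed by -0.02 and Terc, which carries an H/ACA domain, by 0.04. That list also holds Rnu3a (0.28, SE 0.12, without the gap), the gene of U3, a box C/D snoRNA whose symbol the member rule leaves out. Scarna17, a Cajal body RNA, differed by 0.45 (SE 0.15) with the gap, and Scarna8 by -0.27 (SE 0.10) without it. Of 291 microRNA genes, 94 were higher and 1 (0.344%) had the gap, and of 1027 odorant receptor genes none had it.

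The genes outside the members whose 16 values were most like the Snord class mean were Gas5 (Pearson r 0.97), Azin1 (0.96), Sar1a (0.95), Top1 (0.95) and Simc1 (0.95). These are correlations over 16 arrays of shared samples, given as a description. Among the members, 11 correlated with the class mean above 0.9 and 9 below 0.3, with Snord members contributing to that mean themselves.

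The result turned on which peritumoral arrays were read. Without peritumoral 7 and 8, which earlier results had set apart, limma called 14 Snord and 6 Snora members higher at an adjusted p under 0.05 and 0 lower, where 1.7% of all genes were called higher and 0.918% lower. The median difference was then 0.44 for Snord and 0.21 for Snora. Snord73b differed by 1.52 (limma adjusted p = 5.3e-06) and Snord33 by 1.46 (limma adjusted p = 2.4e-05). Leaving out peritumoral 7 alone gave 10 Snord and 1 Snora calls, all higher, where 0.512% of all genes were called higher and 0.13% lower. Leaving out peritumoral 8 alone gave 4 Snord and 0 Snora calls, where 0.0853% of all genes were called higher and 0.015% lower. Since the arrays left out are those that resemble the tumoral group in these members, the calls describe the split of the arrays and are no evidence of a group difference.

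With peritumoral 7 and 8 as the only peritumoral arrays, the median difference was -0.04 for Snord and -0.06 for Snora, and 0 of 19938 genes were called. Snord73b then differed by -0.07, Snord33 by -0.12 and Snora16a by -0.24. Peritumoral 4, highest in all 8 marker lists of other cell types, had a Snord class mean of -0.22, among the first 6 arrays.

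**Figure D5:**
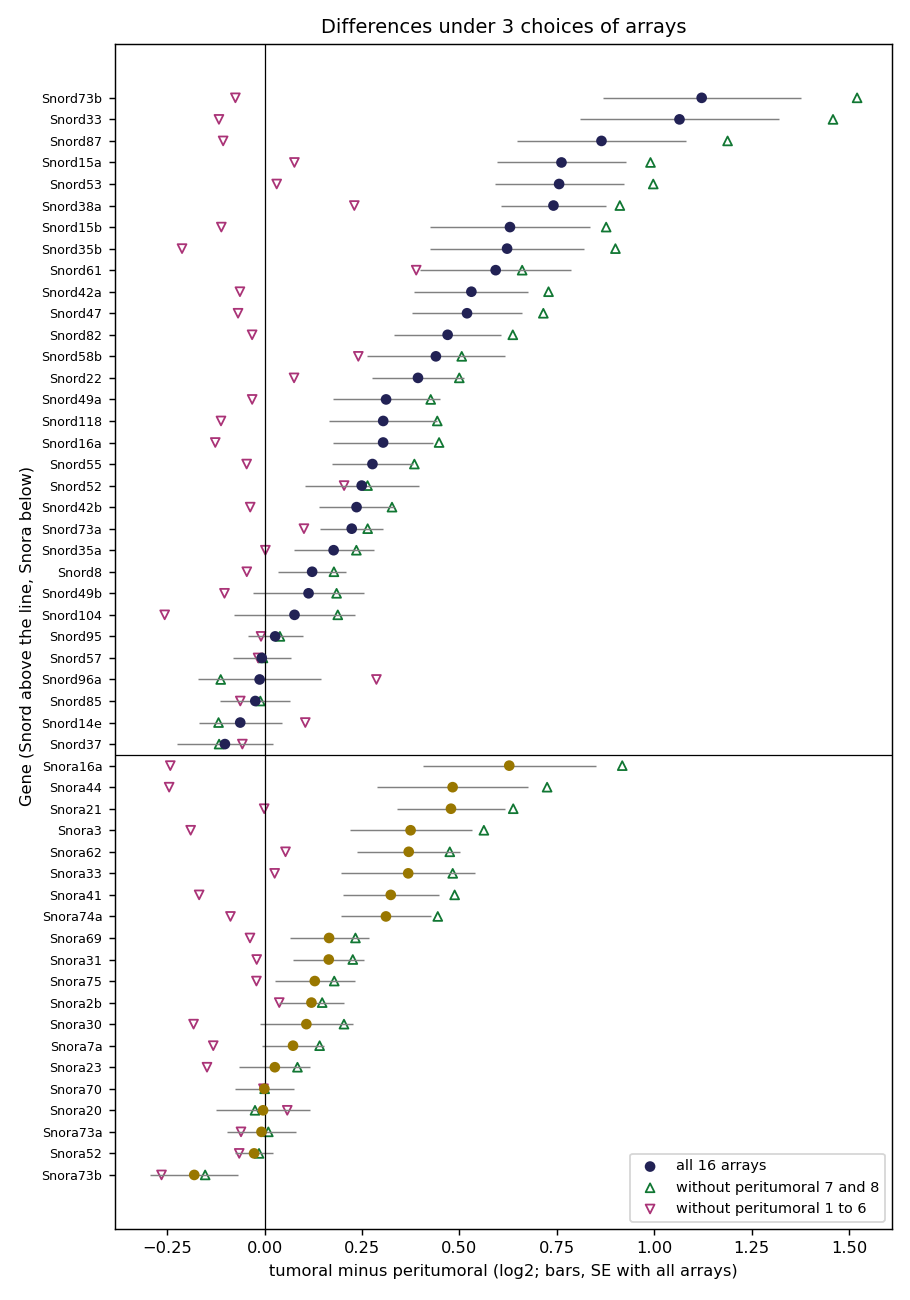
Tumoral minus peritumoral differences in log2 units for 31 Snord genes (above the line, dark blue) and 20 Snora genes (below it, ochre), as filled circles with bars of 1 SE from all 16 arrays. Upward triangles leave out peritumoral 7 and 8, and downward triangles leave out peritumoral 1 to 6. For Snord73b the 3 values are 1.12, 1.52 and -0.07, and for Snora52 they are -0.03, -0.01 and -0.07.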

How the data were processed

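Gene expression was measured on Affymetrix whole-transcript arrays in 16 samples, 8 peritumoral and 8 tumoral. Per the labels' protocols, total RNA from sorted cells was extracted with the miRNeasy kit and amplified with the Ambion WT Expression Kit. The authors deposited a table of 28853 probe sets, read here as log2 values because they run from 2.31 to 14.33. How background and arrays were normalized, and the log base, is not given in the sources used here. A single symbol named 21789 probe sets. One probe set per gene, with the highest mean, left 19938 genes. Of 97 probe sets naming a snoRNA, 56 named a single gene, and 5 members had a second probe set. The 51 members all matched the RefSeq table (GRCm38.p6).

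The contrast of tumoral minus peritumoral was fitted by lmFit and eBayes of limma 3.58.1 (R 4.3.3), with group as the only term and no filter, adjusted by Benjamini-Hochberg over 19938 genes at a threshold of 0.05. The script was tested on simulated data. No test was made over the members as a set. Members and lists were chosen with earlier results of these data known. Members were named by the 5 highest and 5 lowest differences, 3 highest levels and 3 largest SDs in each class (24 genes), with their hosts and core proteins. Alternatives covered the replicate block, normalization, filters, probe sets, array weights, a rank-sum test and arrays left out. The main fit did not treat the samples as paired, since no label pairs them by replicate number.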

Additional observations from a re-analysis of the deposited data

How the results depend on the processing

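With all 16 arrays, no alternative of normalization, filter, variance model, array weight, probe set choice, block or rank-sum test called a gene, and the medians stayed between 0.27 and 0.35 for Snord and 0.11 and 0.19 for Snora. Only choices of arrays moved the counts. Leaving out each array gave 0 to 128 called genes, 0 to 10 Snord and 0 to 1 Snora members. Without peritumoral replicate 7 the counts were 128, 10 and 1; without replicate 8 they were 20, 4 and 0; without replicates 4 and 7 they were 88, 9 and 1; and without replicates 7 and 8 they were 522, 14 and 6. Without peritumoral replicates 1 to 6, added after the data were seen, the medians were -0.037 (Snord) and -0.063 (Snora), in a fit of 2 against 8 arrays.

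Reversals concerned members near 0, except in that last setting. Quantile normalization gave 0.012 (Snora20), -0.066 (Snora23), -0.0057 (Snora7a), 0.013 (Snord85) and 0.0079 (Snord96a). Cyclic loess gave -0.026 (Snora23), 0.0024 (Snord85) and 0.015 (Snord96a). Centring on medians gave 0.041 (Snora20), 0.018 (Snora52), 0.044 (Snora70), 0.037 (Snora73a), 0.037 (Snord57), 0.021 (Snord85) and 0.032 (Snord96a). Array weights gave 0.010 (Snora73a) and 0.013 (Snord14e). Without peritumoral 4 and 7 the values were 0.074 (Snora20), 0.037 (Snora70), 0.058 (Snora73a) and 0.036 (Snord57). Without peritumoral 7 and 8 they were 0.00020 (Snora70) and 0.0095 (Snora73a). Without peritumoral 1 to 6 they were -0.24 (Snora16a), 0.058 (Snora20), -0.00099 (Snora21), -0.15 (Snora23), -0.19 (Snora3), -0.24 (Snora44), -0.13 (Snora7a), 0.10 (Snord14e), -0.12 (Snord33), -0.10 (Snord49b), -0.075 (Snord73b), -0.11 (Snord87) and 0.29 (Snord96a). Leaving out each array gave ranges of -0.066 to 0.040 (Snora20), -0.0097 to 0.062 (Snora23), -0.031 to 0.036 (Snora70), -0.057 to 0.027 (Snora73a), -0.047 to 0.021 (Snord57), -0.087 to 0.013 (Snord85) and -0.092 to 0.057 (Snord96a). The cause was not tested.

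With the replicate number as a block, 0 genes were called and the medians were 0.30 and 0.15. Same-numbered samples correlated above 0.1 in 3 of 8 pairs, and no sample correlated best with its own number. These correlations cannot exclude a shared animal or pool, and no label gives either, so whether same-numbered samples are paired is not known. Members of Snord113 to Snord116 were not among the 51, so the alternative without them was not run. With the filter on dim genes 41 members were left. Dixon's test over 54 groups of values marked 0, where chance marks about 1 in 20. High arrays that stand together, such as peritumoral 7 and 8, can hide each other in this test. The 0 therefore does not show that no array stood apart, and peritumoral 4 was highest in all 8 marker lists of other cell types.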

Other observations

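SnoRNA probe sets that name several genes were not members, and their values are given here without a test. Apart from the Snord116 family, 17 such probe sets were read, of which 15 were higher in tumoral arrays, with a median difference of 0.32. The 17 are not independent of each other. The probe sets of Snord1c with Snord1b had identical values, as did those of Snora19 with Mir3084-1 and Mir3084-2. Those of Snord14d and Snord14c with Hspa8 were close (0.09 and 0.10). In 5 of the 17 peritumoral 1 to 6 lay below all other arrays, where 0.983% of all genes read from single-symbol probe sets did. No share was taken over probe sets that name several genes. Those named with Rpl13a or Rpl13 also read a ribosomal protein gene, and 22 of 55 such genes (40%) had the gap. The probe set of Snord34 and its host Rpl13a held the largest difference, 1.12: peritumoral 1 to 6 ran from 7.22 to 7.74 and the other 10 arrays from 8.65 to 9.21. Snord32a, a further Rpl13a snoRNA, differed by 0.35 on a probe set shared with that gene, with 9.96 to 10.32 in the first 6 arrays and 10.5 to 10.88 in the others. Probe sets that pair Snora34 with Mir1291, Snora24 with Snhg8, and Snord68 with Rpl13 differed by 0.87, 0.67 and 0.61, each with the same gap. Snord14a with Rps13 differed by -0.08 and had no gap.

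The Snord116 genes lie in an imprinted tandem array known chiefly from the brain. Their 24 probe sets name several genes each and stood at mean levels of 5.83 to 6.25, below the odorant receptor 95th percentile of 6.40. They differed by 0.35 to 0.49, less than their SD within either group. In the values that many of them hold in common, the SD was 0.85 in peritumoral and 0.91 in tumoral arrays. There, peritumoral 1 to 6 spanned 4.81 to 6.45 and the other 10 arrays 4.72 to 7.78, without a gap. The probe sets share sequence, many have identical values, and they are not independent of each other.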
